A study of Capra hircus with 6 samples.

Results

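E2F factors are the DNA-binding proteins that switch the genes of DNA replication on and off, and the pocket proteins RB1, RBL1, and RBL2 are the partners that hold them in check. The 10 genes described here are *E2F1*, *E2F2*, *E2F3*, *E2F4*, *E2F5*, *E2F7*, *E2F8*, *RB1*, *RBL1*, and *RBL2*. They were taken by gene symbol from the 15944 genes of the deposited count table, where each symbol was found once, and the choice of these genes was made with earlier results of these data known. RNA-seq had been performed on dermal papilla cells of secondary hair follicles (SHF-DPCs), the mesenchymal cells at the base of the follicle that makes cashmere. The wild-type primary cultures came from the skin of *Capra hircus* (Albas cashmere goats, 3 years old) and were used at passages 4 to 7. The ATRA-treated group (3 libraries) received 0.1 mM all-trans retinoic acid for 24 h, and the control group (3 libraries) received medium without it. The cells came from 3 animals, but the sources used here do not state whether a control library and an ATRA library with the same number share an animal. ATRA was made up in complete medium and the control cultures got the same volume of medium, with no solvent named. All 6 libraries were taken as a single batch in the comparison, and the study's methods name no batch.

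In a proliferating cell, cyclin-dependent kinases phosphorylate the pocket proteins in late G1, which releases the activator factors E2F1, E2F2, and E2F3 to turn on the genes of S phase. In a resting cell, E2F4 or E2F5 joins RBL2 or RBL1, a DP partner, and the MuvB core to form the DREAM complex, which keeps genes of the cell cycle silent. E2F7 and E2F8 are atypical members that bind DNA without a DP partner and repress the same G1/S genes late in S phase. *E2F1*, *E2F2*, *E2F7*, *E2F8*, and *RBL1* are themselves textbook E2F target genes, whereas *RBL2* is best known for its abundance in cells that have left the cycle. The comparison of the groups asks how ATRA changed the transcripts of this switch.

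Total counts lay between 36887160 and 38012771 in the control libraries and between 35532339 and 36870939 in the ATRA libraries. Of the dermal papilla markers, *ACTA2* and *VCAN* were abundant in the control group, whereas *PROM1*, *CORIN*, and *ALPL* had at most 1 count in any library. Levels are given as normalized CPM (counts scaled to 1e6 per library), in which a library's total is corrected by its TMM factor, a scaling that assumes that most genes do not differ. All 7 tested dermal papilla markers and all 9 mesenchymal markers fell on that scale. The raw counts of *FGF7* were nevertheless higher with ATRA (924 to 966 against 765 to 877), and those of *LEF1* and *PDGFRB* overlapped. *WIF1* had 98, 82, and 94 counts in the control libraries and 6, 6, and 7 with ATRA. It was kept for testing by its control counts alone, so its fall is a description only. The dermal papilla marker *SOX2*, too low for the test, went up, with 5, 0, and 2 counts in the control libraries and 10, 16, and 9 with ATRA. The summed level of the dermal papilla list went from between 8240 and 9180 to between 91.0 and 94.6 CPM, and that of the mesenchymal list from between 85600 and 86800 to between 4790 and 5110. Of the keratinocyte, endothelial, leukocyte, and melanocyte markers, *KRT10*, *PECAM1*, *CD68*, and *CD14* rose and *PMEL* fell. *VWF*, the other tested endothelial marker, had 5, 12, and 5 counts and then 8, 12, and 11 (edgeR adjusted p = 0.909). *PECAM1* had 0 counts in each control library and 242, 340, and 206 with ATRA. It was kept for testing by its ATRA counts alone, so its rise is a description only. With 4.98 to 7.71 CPM it made up most of the endothelial sum in the ATRA libraries. Markers of the same lists with too few counts for the test went both ways. *CDH1* and *DSP* had 0 counts in each control library and 2, 1, and 2 with ATRA. *CD3E* had 1, 0, and 1 and then 2, 5, and 3, and *EPCAM* had 0, 1, and 0 and then 1, 5, and 2. *KRT14* had 20, 14, and 10 counts in the control libraries and 3, 0, and 0 with ATRA, *KRT5* had 2, 7, and 3 and then 0 in each, and *KDR* had 5, 6, and 10 and then 2, 1, and 0. The summed level of the endothelial list went from between 0.322 and 0.556 to between 5.24 and 8.03 CPM, that of the leukocyte list from between 9.15 and 12.8 to between 41.2 and 44.0, that of the keratinocyte list from between 3.11 and 4.98 to between 5.40 and 6.02, and that of the melanocyte list from between 3.80 and 4.26 to between 1.97 and 2.34. *CDH5* had 1 count in a single ATRA library and 0 in the others, *PTPRC* and *TYR* were not listed in the table, and *TP63* had 1 count in all. The part of these shifts in the results that follow was not tested, and in bulk RNA fewer cells of a type cannot be told apart from less RNA per cell. ATRA replicate 2 stood farther from its group (chi-square per degree of freedom 18.4 and 17.3 against the others, which differed from each other by 5.01), and values without it are given for *E2F2*, *E2F7*, *RB1*, *FOXM1*, and *CDKN1C*.

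All 10 genes were tested among the 12588 genes that passed edgeR's expression filter, but *E2F2*, *E2F7*, and *E2F8* passed it through the control libraries alone. A gene is said to have risen or fallen when the quasi-likelihood test of edgeR gave it an adjusted p under 0.05. On that criterion 3 of the 10 genes rose (*E2F5*, *RB1*, and *RBL2*), 6 fell (*E2F1*, *E2F2*, *E2F4*, *E2F7*, *E2F8*, and *RBL1*), and *E2F3* did not pass. The calls of *E2F2*, *E2F7*, and *E2F8* are a description only, since genes kept for their control counts alone had to differ, and no p is given for them. Most of the transcriptome met the same criterion, 79.7% of the genes tested, with 40.9% higher and 38.7% lower, so a call alone says little about these genes and their sizes are given below. Scaling weighs on the direction of small changes. Fold changes of ATRA over control are given on the log₂ scale (log₂FC). Over all genes tested their median was 0.04 with TMM and 0.52 when counts were divided by library size alone, and the share of higher genes among those called went from 51.4% to 73.5%. Under library size alone, 4 of the 10 genes rose and 5 fell. With the study's thresholds of |log₂FC| above 1 and an unadjusted p under 0.05, 6 of the 10 genes passed, against 31% of all genes tested. Of these, 5 were lower (17.3% of all genes) and 1 was higher (13.7%).

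**Figure D1:**
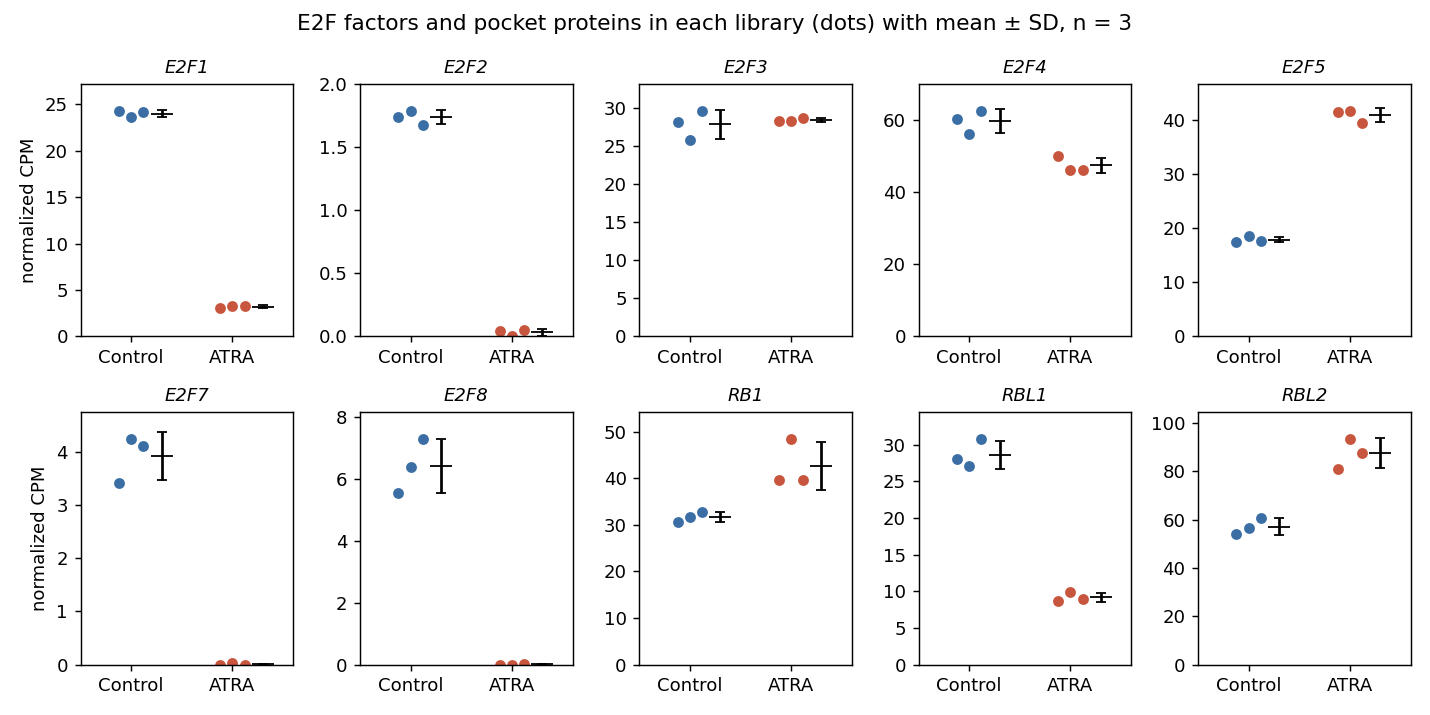
Normalized CPM (linear vertical axis from 0, a separate scale for each gene) of the 10 genes in 3 control and 3 ATRA libraries. Dots are libraries and black bars are the mean ± SD; the ATRA libraries sat far below the control libraries for *E2F1*, *E2F2*, *E2F7*, *E2F8*, and *RBL1* and above them for *E2F5*, *RB1*, and *RBL2*, and the *E2F3* dots overlapped.

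The activator factors parted from each other. *E2F1*, which drives entry into S phase, had 24.3, 23.6, and 24.2 normalized CPM in the control libraries and 3.08, 3.24, and 3.31 in the ATRA libraries. The groups did not overlap, and the libraries within each group lay close together. Its log₂FC was -2.90 (standard error 0.0999, adjusted p = 4.81e-15), lower than that of all but 4.85% of the tested genes. The groups did not overlap for 9 of these 10 genes, 3 of them higher and 6 lower, nor did they for 80.1% of all genes tested (41.2% higher and 39% lower).

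*E2F2*, the second activator, was already low in the control group, with 54, 58, and 54 counts. The ATRA libraries held 2, 0, and 2 counts. Summed over the libraries, the control group had 55.9 times the scaled level of the ATRA-treated group (exact 95% interval 21.4 to 208, counting error only). The fitted log₂FC was -5.66, and -5.11 without ATRA replicate 2. Intervals of this kind treat reads as independent molecules.

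*E2F3*, the third activator, behaved otherwise. Its values were 28.1, 25.8, and 29.6 CPM in the control libraries and 28.2, 28.2, and 28.7 in the ATRA libraries, so that the groups overlapped. The log₂FC was 0.03 with a 95% interval from -0.13 to 0.19 (adjusted p = 0.740). With library size alone it was 0.51 (adjusted p = 1.06e-05), beside the median of 0.52 that this scaling gave over all genes. The TMM value stood above that of 49.6% of the tested genes, so *E2F3* lay in the middle of the transcriptome. Within a library the ratio of *E2F3* to *E2F1* counts does not depend on scaling. Its log₂ value was 0.21, 0.13, and 0.29 in the control libraries and 3.20, 3.12, and 3.11 in the ATRA libraries, a 7.65-fold shift (two-sided exact permutation p = 0.1, which is the lowest value a comparison of 3 with 3 libraries can give). This ratio was chosen after its values were seen.

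The repressor factors that depend on pocket proteins also moved apart. *E2F4*, the main E2F of resting cells, had 60.5, 56.1, and 62.7 CPM in the control libraries and 50.0, 46.3, and 46.1 in the ATRA libraries. The groups were apart by a small margin (log₂FC -0.33, standard error 0.0676, adjusted p = 0.000209), and the direction turned to 0.15 with library size alone (adjusted p = 0.0527). *E2F5*, its closest relative, had 17.5, 18.5, and 17.6 CPM in the control group and 41.5, 41.7, and 39.4 CPM with ATRA. It was the only member to pass both the test and the fold threshold upwards with TMM scaling (log₂FC 1.19, standard error 0.0736, adjusted p = 3.51e-11), and it was higher in 3 of 3 ATRA libraries. With library size alone, *RBL2* passed that threshold as well. The log₂ ratio of *E2F5* to *E2F4* counts rose from -1.74 ± 0.123 to -0.22 ± 0.0606 (SD, n = 3 each, two-sided exact permutation p = 0.1, the lowest possible). This ratio was also chosen after its values were seen.

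The atypical repressors were nearly gone from the ATRA libraries. *E2F7* had 106, 137, and 132 counts in the control libraries and 0, 1, and 0 counts with ATRA. *E2F8* had 172, 206, and 234 counts in the control libraries and 0, 0, and 1 counts with ATRA. With 1 count in the whole ATRA-treated group for each gene, the scaled level of the control group was 505 times as high for *E2F7* (exact 95% interval 90.2 to 20000) and 825 times as high for *E2F8* (147 to 32600). The intervals cover counting error only and overlap widely, so which of the pair fell further cannot be read from these counts. The single ATRA count of *E2F7* stood in replicate 2 and that of *E2F8* in replicate 3. Fitted values move with these counts, for *E2F7* from -8.46 to -10.15 without ATRA replicate 2 and for *E2F8* from -9.17 to -10.88 without ATRA replicate 3. Together they had 278, 343, and 366 counts in the control libraries and 0, 1, and 1 in the ATRA libraries.

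Grouped by role, the summed level of the 3 activators went from 53.6 ± 2.17 to 31.6 ± 0.371 normalized CPM (SD, n = 3 each). That of *E2F4* and *E2F5* went from 77.6 ± 2.86 to 88.3 ± 2.96 CPM, and that of *E2F7* and *E2F8* from 10.3 ± 1.24 to 0.0156 ± 0.0135 CPM. The log₂ ratio of the *E2F4* and *E2F5* sum to the activator sum was 0.53, 0.54, and 0.53 in the control libraries. In the ATRA libraries it was 1.55, 1.48, and 1.42, a 1.93-fold shift toward the *E2F4* and *E2F5* sum. The groups did not overlap (two-sided exact permutation p = 0.1, the lowest possible). The log₂ ratio of the *E2F7* and *E2F8* sum to the *E2F4* and *E2F5* sum, with 1 count added to each sum because an ATRA library held 0, went from -2.91 ± 0.176 to -11.22 ± 0.634 (SD, n = 3 each, two-sided exact permutation p = 0.1).

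As shares of the counts on the 7 E2F genes, which also do not depend on scaling, *E2F1* went from 17.0% ± 0.493 to 2.68% ± 0.157 and *E2F5* from 12.7% ± 0.825 to 34.1% ± 0.731 (SD, n = 3 each). *E2F4* held 42.2% ± 0.940 in the control group and 39.6% ± 1.04 with ATRA, and *E2F3* held 19.6% ± 0.649 and 23.7% ± 0.707. In the ATRA libraries, *E2F3*, *E2F4*, and *E2F5* thus carried nearly all E2F reads. Reads also scale with transcript length, which was not used here, so shares are compared for the same gene between groups and not between genes.

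**Figure D2:**
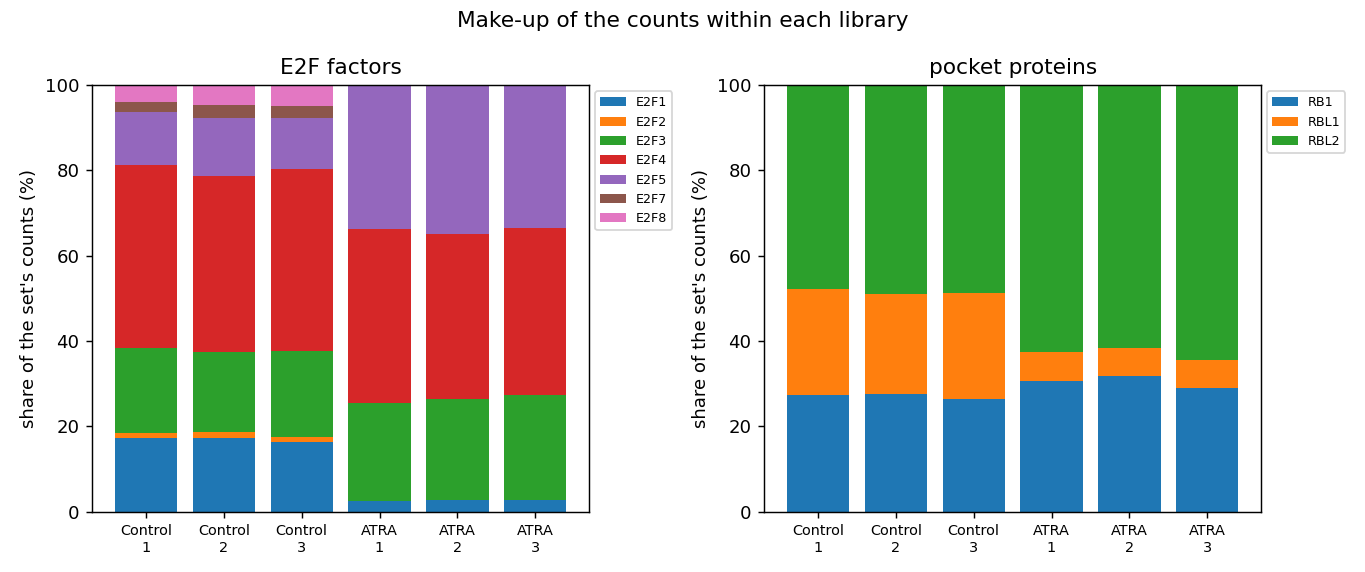
Share (%) of each gene in the summed counts of the 7 E2F genes (left) and of the 3 pocket protein genes (right), a stacked bar for each of the 3 control and 3 ATRA libraries. With ATRA the parts of *E2F1*, *E2F2*, *E2F7*, *E2F8*, and *RBL1* shrank, and those of *E2F5* and *RBL2* grew, in every library.

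The pocket proteins changed in opposite directions. *RB1* encodes the retinoblastoma protein, the main brake on the activator factors. It had 30.7, 31.7, and 32.8 CPM in the control libraries and 39.7, 48.4, and 39.6 in the ATRA libraries. The groups did not overlap, but ATRA replicate 2 lay well above its group. The log₂FC was 0.42 (standard error 0.0828, adjusted p = 0.000138), and 0.31 without that library. With R's t.test function, which the study's methods name, the adjusted p of *RB1* was 0.0592.

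*RBL1* encodes the pocket protein that accumulates in cycling cells. It had 28.0, 27.1, and 30.8 CPM in the control libraries and 8.72, 9.86, and 8.92 in the ATRA libraries. All ATRA libraries lay far below all control libraries (log₂FC -1.64, standard error 0.0897, adjusted p = 5.46e-12). *RBL2* encodes the pocket protein of resting cells and of the DREAM complex. It had 53.9, 56.6, and 60.7 CPM in the control libraries and 81.0, 93.4, and 87.7 with ATRA. Its groups did not overlap either (log₂FC 0.61, standard error 0.0689, adjusted p = 1.82e-07). With library size alone the log₂FC was 0.90 for *RB1*, -1.16 for *RBL1*, and 1.09 for *RBL2*, so that no direction turned.

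The largest shift in ratio among the pocket proteins was that of *RBL2* to *RBL1*, followed by that of *RB1* to *RBL1* (4.17-fold). The log₂ ratio of *RBL2* to *RBL1* counts was 0.95, 1.06, and 0.98 in the control libraries and 3.22, 3.24, and 3.30 in the ATRA libraries. That is a 4.78-fold change, many times the spread within a group (two-sided exact permutation p = 0.1, the lowest possible). The log₂ ratio of *RB1* to *RBL1* rose from 0.15 ± 0.0676 to 2.21 ± 0.0758 (SD, n = 3 each, two-sided exact permutation p = 0.1). *RBL2* and *RB1* moved more alike. Their log₂ ratio, chosen after its values were seen, was 0.84 ± 0.0397 in the control group and 1.04 ± 0.101 with ATRA. Of the counts on the 3 genes, *RBL1* held 24.4% ± 0.746 in the control group and 6.60% ± 0.127 with ATRA, while *RBL2* held 48.6% ± 0.622 and 62.9% ± 1.43 (SD, n = 3 each).

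**Figure D3:**
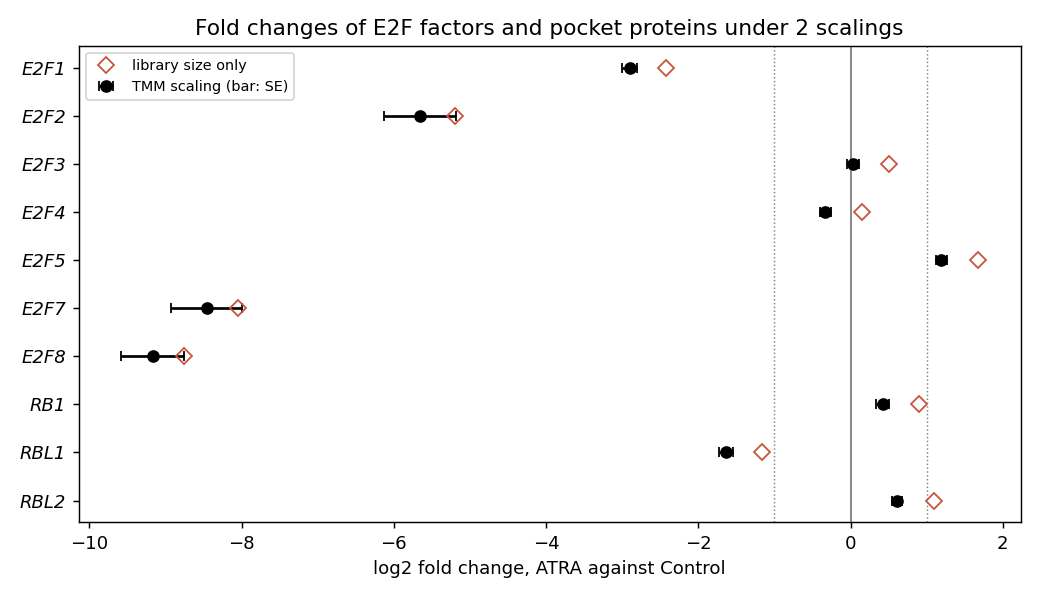
The log₂FC of ATRA against control for the 10 genes (horizontal axis, linear in log₂ units). Black dots with bars are TMM scaling with the standard error, open diamonds are library size alone, and dotted lines mark the fold threshold; only *E2F4* changed sign between the scalings, and *E2F3* moved from 0.03 to 0.51.

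With TMM scaling, neither the DP genes nor *E2F6* passed the fold threshold. The DP proteins dimerize with E2F1 to E2F6 on DNA. *TFDP1* had 85.8 ± 0.383 CPM in the control group and 65.0 ± 1.35 with ATRA (SD, n = 3 each, log₂FC -0.40, adjusted p = 4.70e-06), which turned to 0.08 with library size alone (adjusted p = 0.206). *TFDP2* rose from 31.7 ± 1.73 to 38.0 ± 2.60 CPM (SD, n = 3 each, log₂FC 0.26, adjusted p = 0.00435). *E2F6*, a repressor that acts without pocket proteins, rose from 18.5 ± 0.472 to 29.0 ± 1.14 CPM (SD, n = 3 each, log₂FC 0.65, adjusted p = 3.31e-07), and with library size alone its log₂FC of 1.13 was past the fold threshold. *TFDP3* was not listed in the table.

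Of the MuvB core and the activators that bind it, 7 of 8 genes fell and *LIN37* rose (log₂FC 0.36). Of all genes tested, 38.7% fell and 40.9% rose. The largest fall was that of *FOXM1*, the transcription factor of G2/M genes (log₂FC -7.62, and -8.38 without ATRA replicate 2). It had 418, 344, and 467 counts in the control libraries and 1, 5, and 2 with ATRA. Like *E2F7*, it passed the expression filter through the control libraries alone, so its call is a description only. *MYBL1* and *MYBL2*, which replace the pocket proteins on MuvB in cycling cells, fell by 2.25 and fell by 1.90 on the log₂ scale. Among the core subunits, *LIN9* fell by 1.76. *LIN54* fell by 0.74 but did not pass with library size alone (-0.26, adjusted p = 0.0548), and *LIN52* (log₂FC -0.27) and *RBBP4* (log₂FC -0.24) turned to 0.21 and 0.24 with library size alone. The list's median log₂FC was -1.25, against 0.04 for all genes tested.

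Among the 9 cyclins and kinases that phosphorylate pocket proteins, 6 fell and 1 rose, beside 38.7% and 40.9% of all genes tested. *CCND1* and *CDK6* form a kinase of early G1. *CCND1* fell by 1.83 on the log₂ scale, *CDK6* fell by 2.64, *CCND3* fell by 0.78, and *CDK4* fell by 0.75. The cyclin E genes parted. *CCNE2* went from 13.5 ± 0.418 to 1.55 ± 0.186 CPM (log₂FC -3.12), and *CCNE1* from 6.45 ± 0.280 to 13.0 ± 1.22 CPM (SD, n = 3 each, log₂FC 1.01, adjusted p = 1.12e-07). *CCNA2*, whose cyclin acts in S phase, fell by 1.70. *CDK2* (log₂FC -0.18, adjusted p = 0.0670) and *CCND2* (log₂FC -0.11, adjusted p = 0.112) did not pass, and with library size alone they turned to 0.30 and 0.37 and passed. *CDK2* passed as lower with RLE scaling (log₂FC -0.20, adjusted p = 0.0429) and without ATRA replicate 1 (-0.24, adjusted p = 0.03), and *CCND2* without ATRA replicate 2 (-0.14, adjusted p = 0.0452).

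Of the inhibitors of these kinases, 4 of 6 tested genes rose and 2 fell, beside 40.9% and 38.7% of all genes tested. *CDKN1A*, which encodes the p21 inhibitor, rose from 155 ± 3.91 to 616 ± 13.0 CPM (SD, n = 3 each, log₂FC 1.99, adjusted p = 2.74e-16). *CDKN2D* rose with a log₂FC of 1.89 and *CDKN1B* with 0.50. *CDKN1C* had few counts, 13 to 26 per control library and 34 to 49 per ATRA library, and its call was marginal (log₂FC 0.69, adjusted p = 0.0491). It was lost with RLE scaling, with no filter, with DESeq2, and with the t.test function (adjusted p of *CDKN1C* 0.0542 to 0.11), and without Control replicate 1, Control replicate 3, ATRA replicate 1, or ATRA replicate 2 (adjusted p of *CDKN1C* 0.082 to 0.227). *CDKN2C* fell by 1.69, and *CDKN2B* (log₂FC -0.32) turned to 0.16 with library size alone. *CDKN2A* was not listed. The median log₂FC was 0.60 for the inhibitors and -0.78 for the cyclins and kinases.

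Of 9 genes for corepressors that pocket proteins recruit, 5 fell and 4 rose. With library size alone 4 fell and 5 rose because *RBBP4* turned. Over all genes tested, 38.7% fell and 40.9% rose with TMM scaling, so the counts of this list say little by themselves. *SUV39H1*, a histone H3 lysine methyltransferase, fell by 3.26 on the log₂ scale, from 15.6 ± 1.41 to 1.62 ± 0.320 CPM (SD, n = 3 each). *RBBP7* (log₂FC -1.22), *HDAC1* (log₂FC -0.92), and *SMARCA4* (log₂FC -0.86) also fell. *SIN3B*, a scaffold of histone deacetylase complexes that repress E2F targets in resting cells, rose with a log₂FC of 0.98, and *KDM5A*, a histone demethylase first found as an RB1 partner, with 0.65. *HDAC2* (log₂FC 0.17) and *ARID4A* (log₂FC 0.22) rose by less, and without Control replicate 1 or ATRA replicate 3 neither passed, which left 2 of 9 higher. The call of *HDAC2* was also lost without Control replicate 3, and that of *ARID4A* without Control replicate 2, without ATRA replicate 2, and with the t.test function.

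The target genes of the switch fell almost without exception. Of 30 G1/S genes controlled by E2F, 28 fell, *CCNE1* rose, and *CDC45*, a replication fork helicase factor, did not pass (log₂FC 0.04, adjusted p = 0.756; 0.52 with library size alone, where it passed). The median log₂FC was -2.14, against 0.04 for all genes tested, of which 38.7% fell. *CDC6* and *POLE2* held under 10 counts in every ATRA library. Like *E2F7*, they passed the expression filter through the control libraries alone, so their calls are a description only. The filter asks for about 10 counts in as many libraries as a group has. *RRM2*, *TK1*, and *ORC1* held 8, 9, and 9 counts in ATRA replicate 3, so the ATRA libraries alone would not have kept them. Their calls are a description only as well. The largest falls were those of *RRM2*, which makes deoxyribonucleotides (from 237 ± 12.3 to 0.508 ± 0.298 CPM), *CDC6*, which loads the replicative helicase (8.14 ± 0.611 to 0.0462 ± 0.0219), and *POLE2*, a subunit of the leading-strand polymerase (6.43 ± 0.616 to 0.0466 ± 0.00153; SD, n = 3 each). The smallest fall was that of *CDC25A*, a phosphatase that activates CDK2, with a log₂FC of -0.74 that did not pass with library size alone (-0.26, adjusted p = 0.104). *CCNE1*, *CCNE2*, and *CCNA2* stand in this list and among the cyclins.

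All 22 G2/M genes controlled by MuvB complexes fell, with a median log₂FC of -5.08 and each past the fold threshold. Of all genes tested, 17.3% were lower past that threshold. *MKI67*, *ASPM*, *AURKB*, and *CDC25C* held under 10 counts in every ATRA library. Like *E2F7*, they passed the expression filter through the control libraries alone, so their calls are a description only. *CDC20* held 8, 14, and 12 counts with ATRA, so the ATRA libraries alone would not have kept it. Its call is a description only as well. The list ranged from *MKI67* at -10.31 to *KIF23*, a cytokinesis motor, at -1.37. The mitotic kinase genes *CDK1* and *PLK1* were among its smaller falls, at -3.02 and -2.51. The fitted log₂FC of *E2F7* and *E2F8*, -8.46 and -9.17, lay among the largest falls of both lists, but with 1 ATRA count each these values depend on the prior count of the fit. *E2F1* and *RBL1* lay nearer to the middle of the G1/S list.

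**Figure D4:**
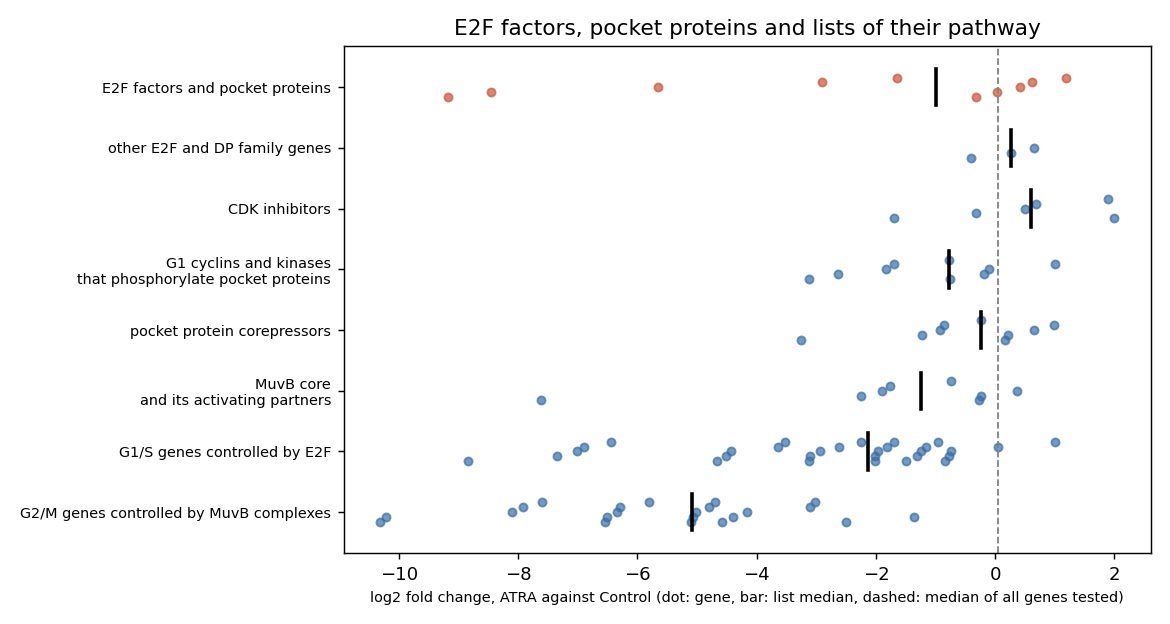
The log₂FC (horizontal axis, TMM scaling) of the 10 genes (red) and of the tested genes of 7 lists of the pathway (blue), a dot for each gene. Black bars are list medians, -5.08 for the G2/M list and 0.60 for the CDK inhibitors, and the dashed line is the median of all genes tested, 0.04.

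In the deposited annotation, 8 of the 10 genes carried the KEGG term Cell cycle, and *E2F7* and *E2F8* did not. With TMM scaling, 32 of the other 112 tested genes with that term rose and 65 fell (median log₂FC -0.41). Over all genes tested, 40.9% rose and 38.7% fell, with a median of 0.04.

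For each gene, the profile over the 6 libraries was compared with those of all tested genes by the root mean square difference of centred log₂ CPM. Such a likeness follows mainly the size of the difference between the groups and says nothing of shared control. The gene nearest to *E2F7* was *CDCA3* (0.248), followed by *FOXM1* (0.299), and those nearest to *E2F8* were *TTK* (0.250) and *KIF20A* (0.267), all of which encode factors of mitosis. *E2F2* was nearest to *ARHGDIB* (0.227) and *SPC24* (0.332). *E2F1* lay nearest to *FLNA* (0.0288), an actin crosslinker, and *MCM4* (0.0418), a subunit of the replicative helicase. The nearest genes were *FCHSD2* and *CHST3* for *RBL1*, *HS6ST1* and *WHSC1L1* for *RBL2*, *RUFY2* and *PPP4R2* for *RB1*, *RNMT* and *TFPI2* for *E2F5*, *SLC10A3* and *DAZAP1* for *E2F4*, and *TCTN1* and *CAPN15* for *E2F3*, at differences from 0.0219 to 0.0398.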

How the data were processed

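Poly(A) RNA of 3 control and 3 ATRA cultures had been sequenced. The authors trimmed the reads (fastp, TrimGalore) and deposited whole-number read counts per gene, not normalized, with gene annotation. The submitters' processing notes name HISAT2, featureCounts, and DESeq2. The genome build, the annotation, and the use of strand in counting are not given in the sources used here.

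Genes kept by filterByExpr were TMM-scaled and entered the quasi-likelihood test of edgeR (robust, two-sided, no covariate, all 6 libraries), and p-values were adjusted by Benjamini-Hochberg over 12588 genes. The t.test function of R, which the study's methods name, served as an alternative, since counts need a count model. The prior count behind each log₂FC was 0.125, and each standard error was taken as |log₂FC| divided by the root of the F statistic. Ratios within libraries used raw counts, and intervals of summed counts are exact binomial. The members and lists were chosen with earlier results of these data known. From each list, the text names the genes called against its majority and up to 3 with the largest and 3 with the smallest log₂FC, or the whole list where it holds 9 genes or fewer. For likeness, it names the 2 nearest genes without a LOC number. Markers were described by level.

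Alternatives were DESeq2, RLE, upper-quartile or library-size scaling, other filters, t.test, a replicate block, and leaving out single libraries. Versions were 4.3.3 of R, 4.0.16 of edgeR, 3.58.1 of limma, 1.42.0 of DESeq2, 3.11.15 of Python, and 3.10.9 of matplotlib. The study's methods describe cells of 3 animals and biological replicates, without saying which library came from which animal. The p-values of edgeR set the difference between the groups against the spread between these libraries.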

Additional observations from a re-analysis of the deposited data

How the results depend on the processing

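Under the 14 alternatives, *E2F1*, *E2F5*, *RBL1*, and *RBL2* kept their direction and an adjusted p under 0.05. The log₂FC ranged from -2.93 to -2.42 for *E2F1*, from -1.71 to -1.16 for *RBL1*, from 1.15 to 1.67 for *E2F5*, and from 0.56 to 1.09 for *RBL2*. The sizes for *E2F7* and *E2F8* rest on 1 ATRA count each, and ranged from -10.15 to -2.28 and from -10.88 to -2.87. With library size alone, *E2F4* (0.15) and *TFDP1* (0.08) reversed and *E2F3* (0.51) passed. With each library left out in turn *E2F3* lay between -0.03 (without Control replicate 2) and 0.07, never passing, and *RB1* did not pass with the t.test function. Library size alone also moved 6 list counts by over 1.5 times. It gave 0 of the other E2F and DP genes lower in place of 1, 3 MuvB genes higher and 4 lower in place of 1 and 7, 3 cyclins and kinases higher in place of 1, 1 CDK inhibitor lower in place of 2, and 2 G1/S genes higher in place of 1. These shifts follow from the scaling itself, which raises the median of all genes from 0.04 to 0.52. Leaving out each library in turn gave 2 to 4 corepressors higher.

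Same-numbered libraries did not deviate together (r = 0.06, 0.03, and -0.06 across genes), so the numbers were not taken as pairs. With a replicate block, 3 of the 10 genes rose and 6 fell, as without it, and it moved the counts over all genes to 5123 higher and 4869 lower. Not every library correlated best with its own number. Ratios per kilobase were not run, since no transcript lengths were used here, and *CDKN1C* has no value under the filter of 1 CPM. Depth limits *E2F2*, *E2F7*, and *E2F8*, where the ATRA-treated group held 4, 1, and 1 counts.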

Other observations

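Of the 10 genes, 4 overlap another gene in the RefSeq annotation of assembly ARS1.2, which may differ from the build the authors used. Without strand, reads in a shared stretch cannot be told apart. *AKTIP*, which overlaps *RBL2*, had 30.7 ± 0.296 CPM in the control group and 37.4 ± 2.59 with ATRA (SD, n = 3 each, log₂FC 0.29, adjusted p = 0.00165, edgeR). *LPAR6*, a lysophosphatidic acid receptor gene that overlaps *RB1*, had 2.18 ± 0.165 and 6.93 ± 0.168 CPM (SD, n = 3 each, log₂FC 1.67, adjusted p = 4.47e-09). *C14H8orf59*, which overlaps *E2F5*, had 24.2 ± 2.67 and 21.5 ± 3.40 CPM (SD, n = 3 each, log₂FC -0.17, adjusted p = 0.153). The gene that overlaps *E2F3* was not listed in the table. How much of each count lies in shared stretches was not tested.

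*EAPP*, which encodes a phosphoprotein that binds E2F factors and was looked up after the results were seen, rose from 13.6 ± 1.13 to 20.5 ± 1.37 CPM (SD, n = 3 each, log₂FC 0.58, adjusted p = 1.28e-05, edgeR), with all ATRA libraries above all control libraries.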
